A study of Saccharomyces cerevisiae with 7 samples.

Results

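Transcripts of 48 budding yeast genes that encode translation factors and cytosolic aminoacyl-tRNA synthetases were followed over the 7 arrays of the series. The genes were taken by name: 9 for elongation factors, 17 for initiation factors, 19 for tRNA synthetases, and SUP35, SUP45 and PAB1 beside these 3 subgroups. Of the 48, 45 had a probe set of their own symbol among the 5449 Saccharomyces cerevisiae genes measured. The other 3, TEF1, EFT1 and TIF1, each have a duplicate that encodes the same protein (TEF2, EFT2 and TIF2), and the probe sets of those 3 duplicates are marked by the platform as shared between sequences. TEF2, EFT2 and TIF2 therefore stand here for either copy, and no copy can be read alone. A gene with several probe sets would have been represented by the brightest, but each of the 45 had 1.

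Protein synthesis starts when initiation factors bring the initiator tRNA, the small ribosomal subunit and the capped messenger RNA together. Elongation factors then deliver charged tRNAs and move the ribosome along, and release factors end the chain. Each synthetase joins an amino acid to its own tRNAs. In fast-growing yeast these factors are among the abundant proteins, and many of their genes are expressed together with those of the ribosome.

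The sth1-3 cells came from strain Y4343, of mating type alpha, with the sth1-3ts allele and Scc2-Pk9::TRP1 (2 arrays). The scc2-4 cells came from the MATa strain Y4251, which also carries Scc1-Pk9::TRP1 and Sth1-9myc::URA3 (2 arrays). Wild type cells were the MATa strain YK700, labelled psi+ and GAL, with the markers can1-100, ade2-1, ura3-52, trp1-1, his3-11,15 and leu2-3, 112 (2 arrays at 37C and 1 at 25C). Sth1 is the ATPase of the RSC nucleosome remodeller and Scc2 belongs to the loader of cohesin; the question was how transcript levels at 37C differ when one of these proteins carries its temperature-sensitive allele. Cultures in YP with 2% glucose were at OD600 0.25, and the 37C groups were kept at 37C for 2 h. Each mutant was 1 strain. Its tags differed from wild type along with the allele, and in sth1-3 so did the mating type, so these effects cannot be told apart. The psi+ label refers to the prion state of the Sup35 protein, which a transcript level does not show.

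Signal was low, and a technical control divided the arrays into 2 sets that cut across the strains; no label says what separates them. Background on an array was the 95th percentile of its 1746 Schizosaccharomyces pombe probe sets, at 9.94 to 10.07 on the log2 scale, and 8.06% to 12.9% of all genes lay above it. The bacterial hybridisation controls averaged 12.25 to 12.53 on sth1-3 replicate 1, scc2-4 replicate 1 and the wild type 25C array, called the 3-array set. They averaged 11.52 to 11.72 on sth1-3 replicate 2, scc2-4 replicate 2 and both wild type 37C arrays, called the 4-array set. Between a pair of control probe sets for 25S ribosomal RNA the gap was 2.96 to 3.75 on the arrays of the 3-array set, against 0.36 to 0.92 on those of the 4-array set. The 3-array set holds no wild type 37C array and the 4-array set no 25C array, so temperature and array set cannot be told apart in wild type cells. SCC2 (7.15 to 7.74), STH1 (8.74 to 9.70) and all 7 a-specific genes stayed below background throughout. Of 6 alpha-specific genes, HMLALPHA1 alone passed it, on sth1-3 replicate 1 (10.27), and MF(ALPHA)1, below background, was higher on both sth1-3 arrays (9.58 and 9.14) than on the other 5 (7.19 to 8.77). On sth1-3 replicate 2, HMLALPHA1, whose probe set is marked as shared, was at 8.41, below both wild type 37C arrays (8.59 and 9.07). Over the 6 alpha-specific genes, 2 were higher and 4 lower in sth1-3 than in wild type at 37C. Their median log2 change was -0.12. In such bulk samples fewer cells with a transcript and less of it per cell cannot be told apart.

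Most of the translation genes, like most genes on these arrays, were below background. On no array were 31 of the 45 above it, and 14 (31.1%) passed on at least 1 array, against 22.6% of all genes. By subgroup these were 6 of 7 elongation factors, 3 of 16 initiation factors, 5 of 19 synthetases and 0 of 3 among SUP35, SUP45 and PAB1. On single arrays the share of all genes above background was 10.5% and 8.06% in sth1-3, 11.1% and 9.41% in scc2-4, 9.01% and 8.92% in wild type at 37C and 12.9% in wild type at 25C. The elongation factors above background numbered 5 in the first sth1-3 array, 6 in the first scc2-4 array and 6 at 25C in wild type, against 1 or 0 on each array of the 4-array set. Below, the values of a group with 2 arrays are given for replicate 1 and then replicate 2, all as log2 signal.

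In 6 of 7 elongation factors, all but CAM1, each array of the 3-array set exceeded each array of the 4-array set. This held for 21.6% of all genes. TEF2, standing for both genes of eEF1A, which carries charged tRNAs to the ribosome, lay at 12.81 and 10.79 in sth1-3, at 12.56 and 9.97 in scc2-4, at 9.70 and 9.94 in wild type at 37C and at 12.43 in wild type at 25C. HYP2, the gene of eIF5A, a factor that helps ribosomes through difficult peptide bonds, lay at 11.98 and 9.87 in sth1-3, 11.75 and 9.29 in scc2-4, 8.90 and 8.89 in wild type at 37C and 11.60 at 25C. YEF3, the gene of the fungal elongation factor eEF3, lay at 10.45 and 8.94 in sth1-3, 11.03 and 7.95 in scc2-4, 7.86 and 7.67 in wild type at 37C and 11.01 at 25C. In these 3 genes the 3 arrays of the 3-array set, both mutants at 37C and wild type at 25C, were high. That set holds no wild type 37C array, so strain and temperature do not vary separately in it. Among the low arrays sth1-3 replicate 2 was the highest.

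EFT2, for both genes of the translocase eEF2, was at 11.07 and 9.24 in sth1-3, 10.34 and 9.25 in scc2-4, 8.95 and 9.55 in wild type at 37C and 10.03 at 25C. EFB1, the nucleotide exchange factor of eEF1A, was at 10.17 and 9.17 in sth1-3, 10.23 and 9.27 in scc2-4, 9.39 and 9.21 in wild type at 37C and 10.35 at 25C. For both, the 4 low arrays lay close together, and sth1-3 replicate 2 did not stand above wild type. TEF4 and CAM1 encode 2 forms of the gamma subunit of the same exchange complex. TEF4 was at 9.85 and 8.62 in sth1-3, 9.36 and 8.53 in scc2-4, 8.44 and 7.35 in wild type at 37C and 9.76 at 25C, never above background. CAM1 was at 9.63 and 9.31 in sth1-3, 9.95 and 9.53 in scc2-4, 9.76 and 10.08 in wild type at 37C and 10.29 at 25C. CAM1 was lower on both sth1-3 arrays than on either wild type array, while TEF4 was higher on both, with an sth1-3 replicate 2 value 0.18 above the higher wild type array.

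**Figure D1:**
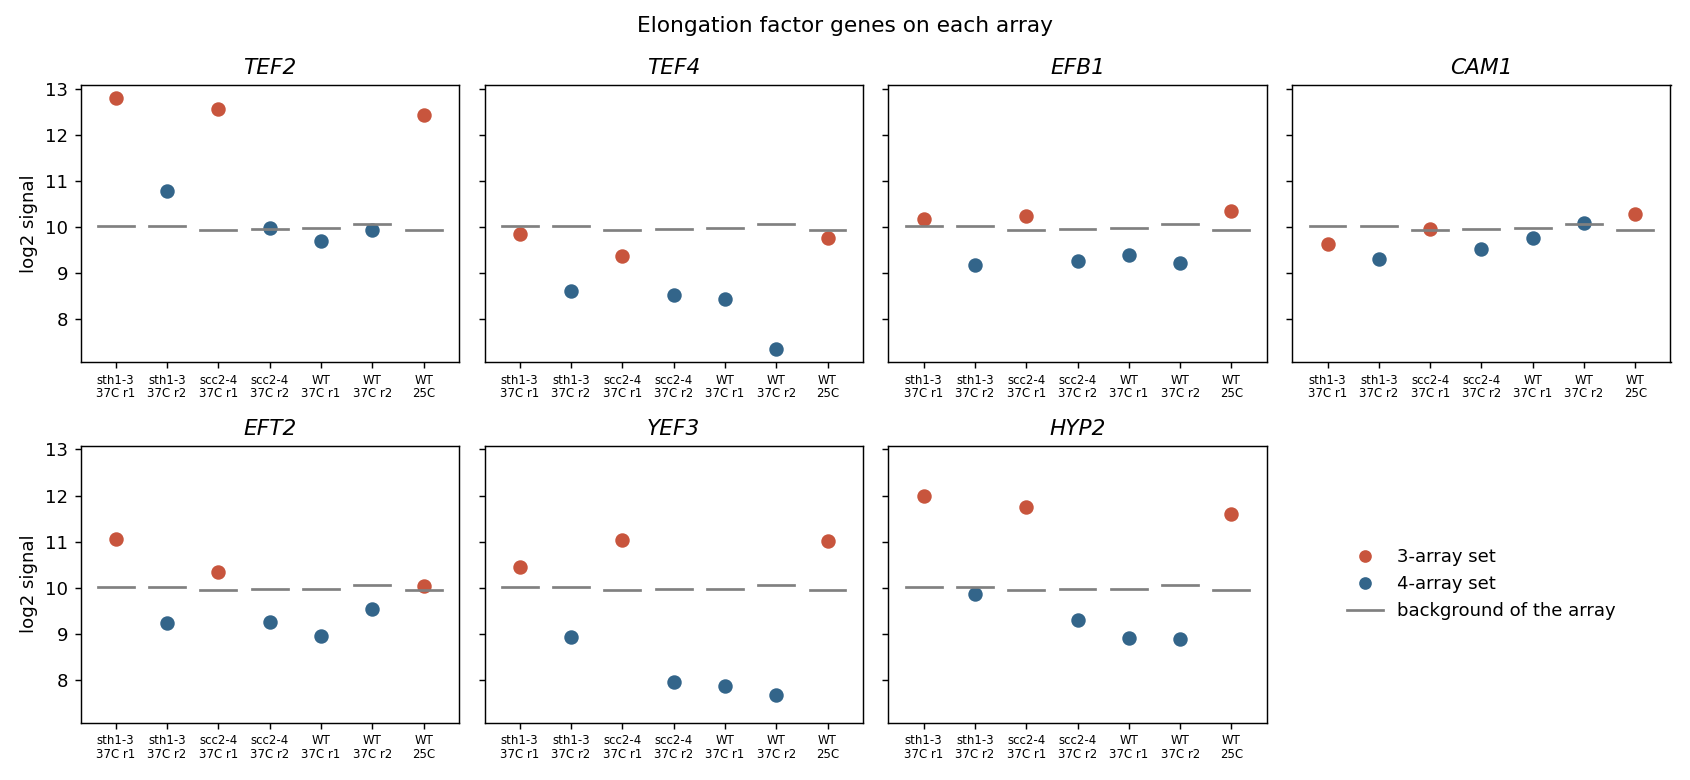
Log2 signal (y axis) of the 7 measured elongation factor genes on each of the 7 arrays (x axis; r1 and r2 are replicates), with red points for the 3-array set, blue points for the 4-array set and grey bars for the background of the array. TEF2, HYP2 and YEF3 lay at 10.45 or more on every red array and at 10.79 or less on every blue one, while the CAM1 points of the sets overlap.

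Initiation factors showed the same split in only some genes. TIF3, the gene of eIF4B, which assists the helicase eIF4A, lay at 11.68 and 10.64 in sth1-3, 11.21 and 10.17 in scc2-4, 10.27 and 9.97 in wild type at 37C and 11.68 at 25C, above background on 6 of 7 arrays. TIF11, the gene of eIF1A, a factor of start codon scanning, lay at 9.18 and 7.80 in sth1-3, 8.79 and 7.38 in scc2-4, 7.21 and 7.48 in wild type at 37C and 9.06 at 25C. TIF5, the gene of eIF5, which triggers GTP hydrolysis by eIF2, lay at 8.56 and 7.32 in sth1-3, 8.22 and 7.86 in scc2-4, 7.32 and 6.94 in wild type at 37C and 8.67 at 25C. With SUI1, the gene of eIF1 (8.22 to 9.86 over the arrays), these were the 4 of 16 initiation genes whose arrays were all higher in the 3-array set, which held for 21.6% of all genes; TIF5, TIF11 and SUI1 were not above background on any array.

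CDC33, the gene of the cap-binding protein eIF4E, ran the other way. It lay at 9.07 and 10.02 in sth1-3, 9.33 and 10.54 in scc2-4, 10.31 and 10.70 in wild type at 37C and 9.46 in wild type at 25C. All 3 arrays of the 3-array set were below background and all 4 of the other set above it. NIP1, the gene of an eIF3 subunit, was likewise lower throughout the 3-array set, but by 0.36 in the mean and below background on every array.

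The remaining initiation genes overlapped between the sets. GCD11, the gene of the gamma subunit of eIF2, which holds the initiator tRNA, was the other one with signal above background, at 9.88 and 9.91 in sth1-3, 10.45 and 9.87 in scc2-4, 9.87 and 10.11 in wild type at 37C and 10.31 at 25C. TIF2, for both genes of eIF4A, was at 8.51 and 9.40 in sth1-3, 9.48 and 9.43 in scc2-4, 9.67 and 8.54 in wild type at 37C and 8.96 at 25C, so that the wild type replicates differed by more than the groups. The eIF3 subunit genes PRT1, TIF34 and TIF35, the eIF2 subunit genes SUI2 and SUI3, GCD1 of the exchange factor eIF2B, and the eIF4G genes TIF4631 and TIF4632 were below background on all 7 arrays.

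Of the genes outside the subgroups, SUP45, which encodes the release factor that reads stop codons, lay at 9.05 and 8.51 in sth1-3, 8.72 and 8.62 in scc2-4, 8.11 and 7.46 in wild type at 37C and 9.08 at 25C. PAB1, the poly(A)-binding protein gene, lay at 9.04 and 8.81 in sth1-3, 9.31 and 8.57 in scc2-4, 8.53 and 8.07 in wild type at 37C and 9.68 at 25C. Both mutants were above both wild type 37C arrays in these genes, on all 4 mutant arrays, yet all values were below background. SUP35, the gene of the release factor GTPase, stayed between 9.34 and 9.74 on the 7 arrays, a narrower range than that of SUP45 or PAB1.

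The tRNA synthetase genes were split between those that followed the array set and those that did not. All 3 arrays of the 3-array set were higher in 7 of 19 (FRS1, FRS2, HTS1, KRS1, MES1, SES1 and THS1), against 21.6% of all genes, and in 0 of 19 were they all lower, against 14%. Of these genes, FRS2 and THS1 were above background on 1 array each, and FRS1, HTS1, KRS1, MES1 and SES1 on no array. KRS1, the lysyl-tRNA synthetase gene, had the largest difference between set means (1.43), although its lowest value in the 3-array set (8.68) and its highest in the 4-array set (8.59) lay close together. It was at 9.77 and 7.54 in sth1-3, 8.68 and 7.66 in scc2-4, 7.47 and 8.59 in wild type at 37C and 9.26 at 25C. SES1, for the seryl enzyme, lay at 9.57 and 8.31 in sth1-3, 8.96 and 8.16 in scc2-4, 8.19 and 7.73 in wild type at 37C and 9.20 at 25C. TYS1, for the tyrosyl enzyme and the only synthetase gene above background on more than 1 array, lay at 9.46 and 9.70 in sth1-3, 9.18 and 10.53 in scc2-4, 10.30 and 10.23 in wild type at 37C and 9.75 at 25C. TYS1 thus resembled CDC33 in direction, with its highest value on scc2-4 replicate 2, and both sth1-3 arrays were below background and below wild type.

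**Figure D2:**
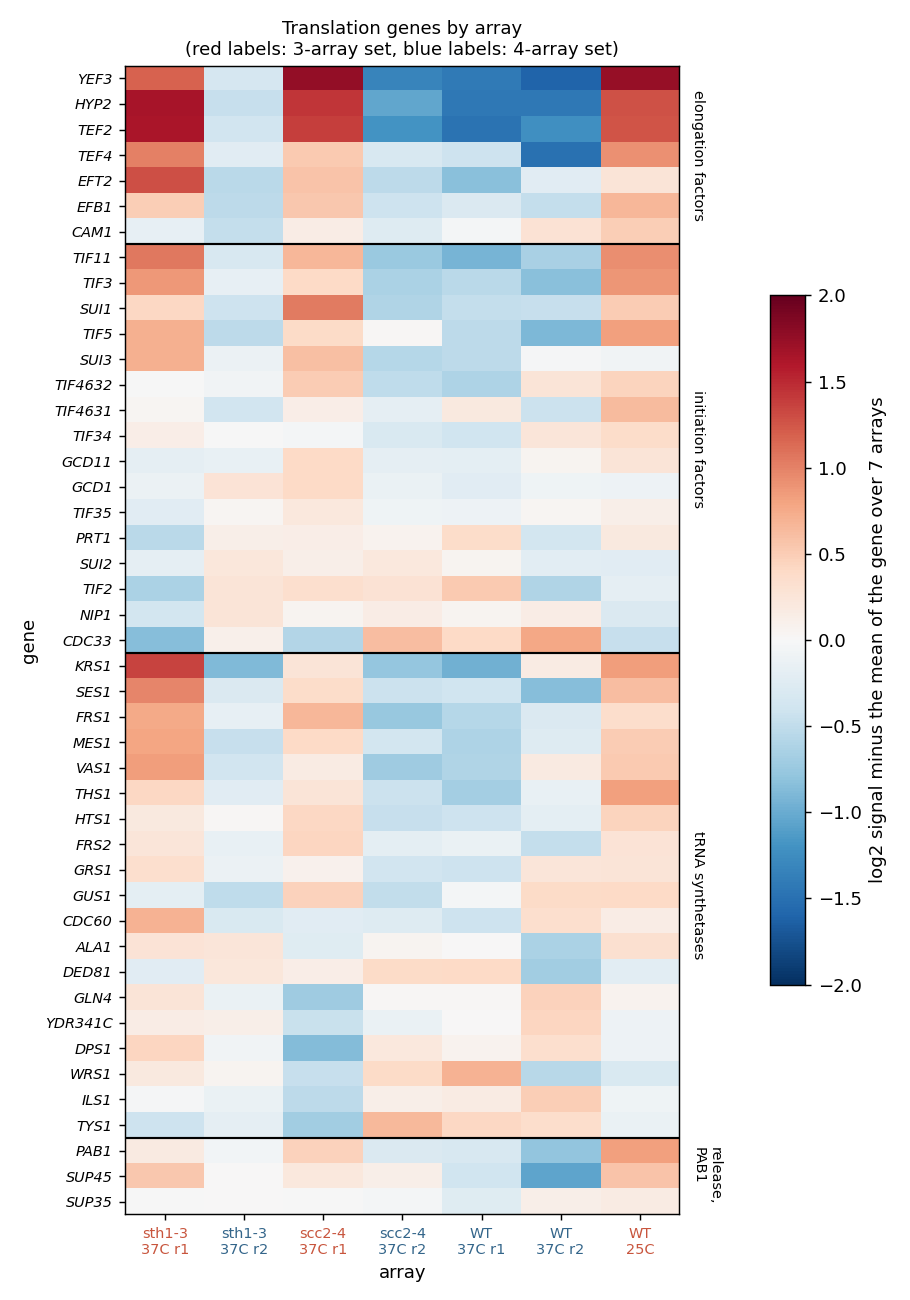
Log2 signal of the 45 measured genes (rows, by subgroup) on the 7 arrays (columns), as the difference from the mean of the gene over the arrays; red is higher and blue lower, and column labels are red for the 3-array set and blue for the 4-array set. The deepest contrast between the sets is in YEF3, HYP2 and TEF2 (differences of 2.72, 2.54 and 2.50 between set means), and CDC33 (-1.10) and TYS1 (-0.72) run the other way.

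Measured as the mean of the 3-array set minus the mean of the 4-array set, the elongation factors had a median difference of 1.42 (range 0.29 to 2.72), the initiation factors 0.27 (-1.10 to 1.55), the synthetases 0.39 (-0.72 to 1.43) and all 5449 genes 0.12. The arrays of the sets did not overlap, with the 3-array set higher, in 19 of the 45 genes, against 21.6% of all genes, and with the 3-array set lower in 2, against 14% of all genes. A difference above 1 was found in 5 of 7 elongation factors, 4 of 16 initiation factors and 3 of 19 synthetases, against 8.72% of all genes. The 45 genes were not selected on this difference by the naming rule, but the list was drawn up with results of these arrays known, so the counts are descriptions. Spearman's rho between gene length and this difference was -0.08 over the 45 genes and -0.08 over all genes.

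**Figure D3:**
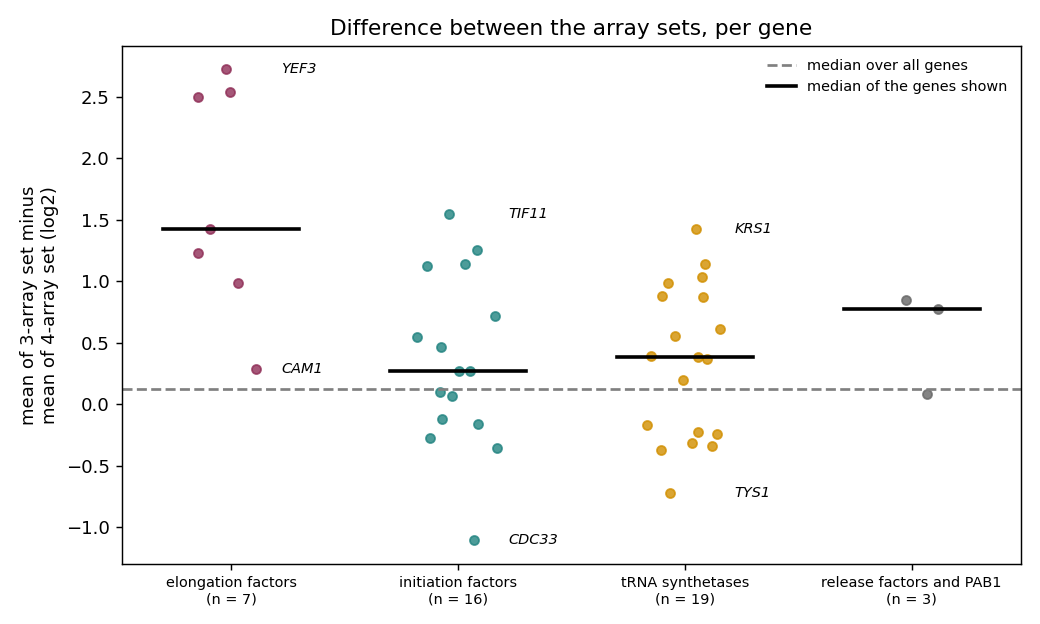
Mean log2 signal of the 3-array set minus that of the 4-array set (y axis) for each measured gene, by subgroup (x axis); black bars are subgroup medians and the dashed line is the median of all 5449 genes, at 0.12. Elongation factors lie highest, from CAM1 at 0.29 to YEF3 at 2.72, and CDC33 is lowest at -1.10.

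Over the 7 arrays the levels of the elongation factor genes were correlated with one another. Pearson's r between pairs had a median of 0.88 over 21 pairs (0.08 to 1.00), against 0.20 over the 120 pairs of initiation factors and 0.13 over the 171 pairs of synthetases. TEF2 and HYP2 had the highest r of any pair (0.997), and TEF2 and TIF11 reached 0.991, while CDC33 and HYP2 had the lowest (-0.971). All these points share the array sets, and no correlation is given with a p. The 10 genes outside the list whose levels were most like the mean standardized level of the 10 listed genes above background on at least 2 arrays were RRP14, CBP4, PUP2, UGX2, RPL10, POP4, RPS1A, BDF2, MOG1 and SSA1 (r = 0.993 for RRP14 to 0.980 for SSA1 over 7 arrays). That mean level was itself higher on the 3-array set (0.36 to 0.73) than on the 4-array set (-0.50 to -0.23). A higher 3-array set in these 10 genes, by 0.75 (PUP2) to 1.99 (RPS1A), thus follows from how they were picked. RRP14, CBP4, PUP2, RPS1A and BDF2 were below background on every array. Among the listed genes averaged, CDC33 (r = -0.81) and TYS1 (r = -0.70) ran against the mean level.

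In sth1-3 against wild type at 37C, elongation factor genes were higher on average and the other subgroups close to the rest of the genome, with no gene past the threshold. The median log2 change was 1.34 for elongation factors (6 of 7 higher), 0.13 for initiation factors (9 of 16), 0.24 for synthetases (13 of 19) and 0.03 for all genes, of which 53% were higher. HYP2 was at least 1.86-fold higher and TEF2 at least 3.42-fold higher, since neither was above background on a wild type 37C array, and TIF3 was 2.05-fold higher. These folds use the mean of both sth1-3 arrays, of which replicate 1 is of the other array set. On replicate 2, HYP2 (9.87) lay below background (10.01). TEF2 was there 0.97 and TIF3 0.52 above the wild type mean on the log2 scale. The log2 change was 2.02 for HYP2 (SE 0.85), 1.98 for TEF2 (SE 0.86), 1.34 for TEF4 (SE 0.54), 1.04 for TIF3 (SE 0.47) and 1.00 for SUP45 (SE 0.37). These 5 genes had the smallest p of the 45, and limma gave each an adjusted p of 0.824. By limma 0 of 45 translation genes were called, as were 0% of all genes; at an unadjusted p under 0.05 there were 3 higher (TEF4, HYP2 and SUP45), against 2.06% of all genes, and 0 lower, against 1.73%. Both sth1-3 arrays were above both wild type arrays in 13 of 45, against 18% of all genes, and below them in 5, against 18.8%. The 5 included TYS1, at least 1.19-fold lower, and CDC33, with a log2 change of -0.96 (SE 0.49) and above background on 1 of 2 sth1-3 arrays, by less than the spread between replicates.

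The size of the sth1-3 difference moved with the array set. Against the wild type 37C mean, the elongation factor median was 1.96 on sth1-3 replicate 1, of the other set, and 0.73 on sth1-3 replicate 2, of the same set as wild type. On replicate 2, YEF3 was 1.17 above the wild type mean, TEF2 0.97, HYP2 0.97 and TEF4 0.73, whereas EFT2 lay between the wild type arrays, EFB1 was at -0.13 and CAM1 at -0.61. Replicate 2 was above both wild type arrays in 17 of the 45, against 27.6% of all genes, and below both in 8, against 36.5%. The synthetases had a median of -0.03 and the initiation factors one of 0.13 on that array, where all genes had -0.06.

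With the array set as a term in the fit, the log2 change in sth1-3 was 0.88 for HYP2 (SE 0.37), 0.83 for TEF2 (SE 0.37), 0.83 for TEF4 (SE 0.38) and 0.78 for YEF3 (SE 0.38), each with an adjusted p of 1.00 (limma). TIF3 and SUP45, also among the 5 with the smallest p without the term, were at 0.52 (SE 0.37) and 0.84 (SE 0.38). This fit called 0 of 45, against 0.184% of all genes. It had 2 residual degrees of freedom and 105 prior ones. Its SEs and p-values thus rest mainly on a spread pooled over all genes, and at an unadjusted threshold it is read as a description. At an unadjusted p under 0.05 it gave TEF2, TEF4, YEF3, HYP2 and SUP45 higher, against 2.04% of all genes, and GUS1, the glutamyl-tRNA synthetase gene, lower by 0.85 (SE 0.37), against 1.23% of all genes. GUS1 lay at 9.09 and 8.77 in sth1-3, against 9.24 and 9.67 in wild type at 37C, and was below background on every array. The array with the highest TEF2, YEF3 and HYP2 signal within the 4-array set, sth1-3 replicate 2, was also the one with the fewest genes above background (439) and the smallest difference between 25S ribosomal RNA probe sets (0.36). The part of either in these values was not tested.

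**Figure D4:**
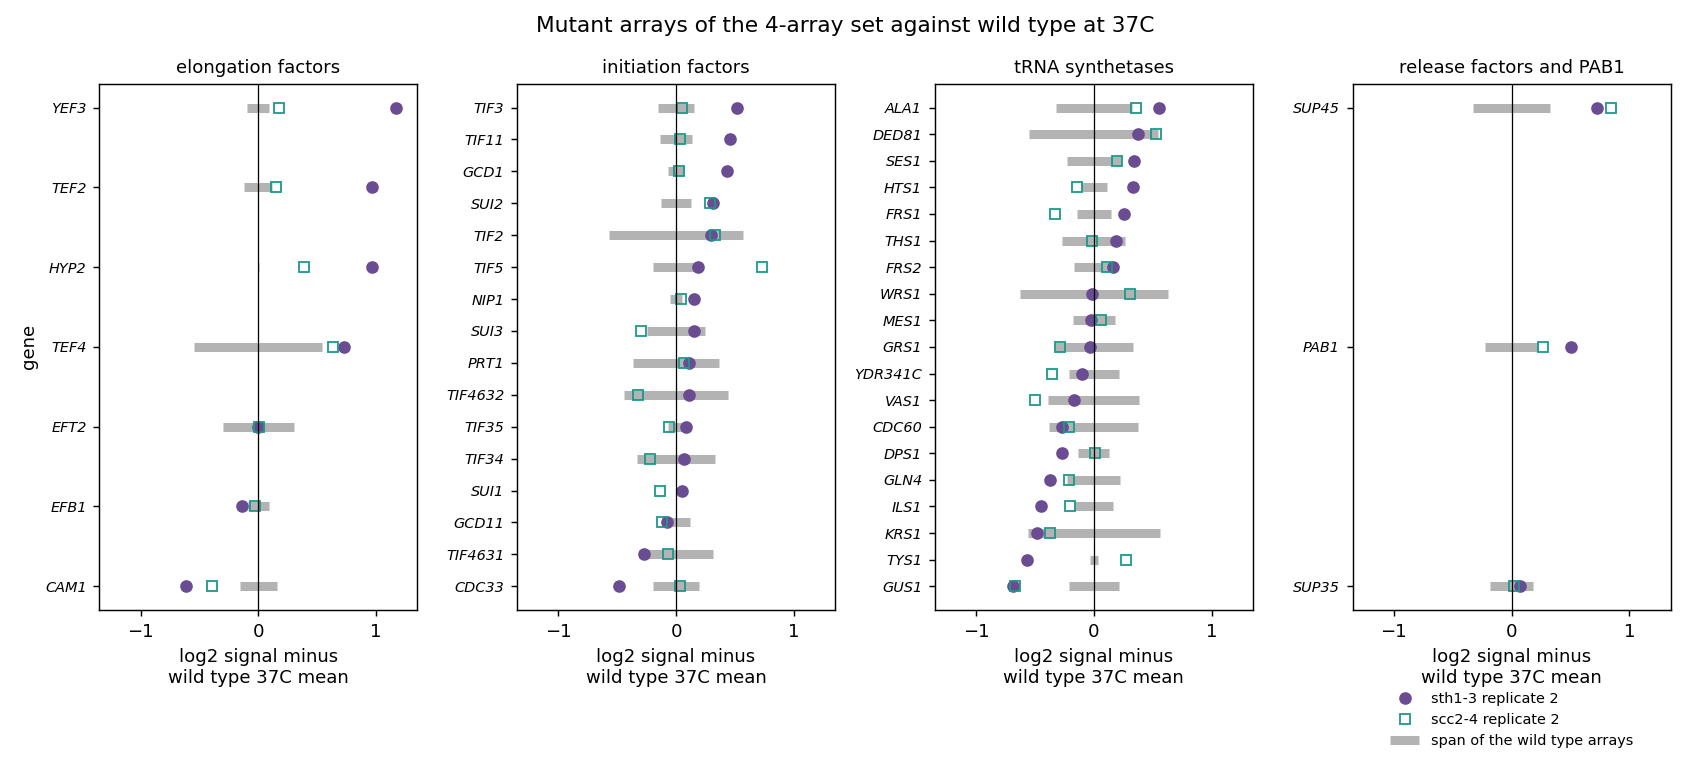
Log2 signal of sth1-3 replicate 2 (filled circles) and scc2-4 replicate 2 (open squares) minus the wild type 37C mean (x axis) for each gene (rows), with grey bars for the span between the 2 wild type arrays; all 4 arrays belong to the 4-array set. sth1-3 lies at 0.73 to 1.17 for TEF4, HYP2, TEF2 and YEF3 and at -0.61 for CAM1, while scc2-4 lies at 0.64, 0.39, 0.15 and 0.18 for the first 4 genes.

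For scc2-4 relative to wild type at 37C, elongation factors again had the highest median of the 3 subgroups, and most of the difference came from 1 array. The median log2 change was 1.05 for elongation factors (6 of 7 higher), 0.21 for initiation factors (13 of 16), -0.06 for synthetases (9 of 19) and -0.01 for all genes, of which 49.5% were higher. Against the wild type mean, the elongation factor median was 1.47 on scc2-4 replicate 1 and 0.15 on replicate 2, and the fit that includes the array set gave 0.29 and called 0 of 45, against 0.128% of all genes. Synthetases were at 0.28 on replicate 1 and at -0.15 on replicate 2.

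HYP2 was at least 1.41-fold and TEF2 at least 2.36-fold higher in scc2-4, whereas for YEF3 no bound above 1 could be given. Both bounds rest on scc2-4 replicate 1, of the other array set: on replicate 2 TEF2 was 0.15 and HYP2 0.39 above the wild type mean on the log2 scale. The log2 change was 1.72 for YEF3 (SE 0.90), 1.62 for HYP2 (SE 0.85), 1.05 for TEF4 (SE 0.54), 0.91 for TIF5 (SE 0.45) and 0.89 for SUP45 (SE 0.37). These had the smallest p of the 45, each with an adjusted p of 0.998 (limma). By limma 0 of 45 were called, against 0% of all genes; at an unadjusted p under 0.05 SUP45 was the 1 gene higher, against 0.899% of all genes, with 0 lower. For SUP45 the difference was 0.84 on replicate 2 alone, within the array set of wild type, though its signal lay below background throughout. Both scc2-4 arrays were above both wild type arrays in 8 of 45, against 15% of all genes, and below them in 2 (YDR341C and ILS1, for the arginyl and isoleucyl enzymes), against 14.1%. On replicate 2, 10 genes were above and 9 below both wild type arrays, against 26.9% and 26.8% of all genes.

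Both mutants were set against the same wild type arrays, so their changes are not independent of each other. The direct comparison of sth1-3 with scc2-4 gave changes between -0.50 and 0.53 in these genes. The median log2 change of sth1-3 over scc2-4 was 0.29 for elongation factors, -0.14 for initiation factors, 0.25 for synthetases and 0.02 for all genes; 26 of 45 were higher, against 52.8% of all genes. Within the 3-array set the median difference was 0.51 for synthetases and -0.36 for initiation factors, and within the 4-array set it was -0.02 and 0.13, so neither subgroup kept its direction in both sets. For elongation factors it was 0.23 and 0.09. Of the 45, 15 (33.3%) were higher in sth1-3 in both sets, against 23.9% of all genes, TEF2 (by 0.25 and 0.82), HYP2 (by 0.23 and 0.57) and TIF3 (by 0.47 and 0.47) among them, and 7 (15.6%) were lower in both, against 22.9%, with CAM1 (by 0.32 and 0.22) and CDC33 (by 0.26 and 0.52). Each such difference sets 1 array against 1.

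The 5 genes with the smallest p between the mutants were YDR341C, DPS1, TIF2, GLN4 and ALA1, each with an adjusted p of 1.00 (limma). YDR341C, TIF2, GLN4 and ALA1 were below background on every mutant array, and DPS1 passed it on sth1-3 replicate 1 alone. YDR341C was at 9.82 and 9.78 in sth1-3 and at 9.23 and 9.53 in scc2-4, a log2 change of 0.42 (SE 0.33). ALA1, for the alanyl enzyme, was at 9.23 and 9.21 in sth1-3 and at 8.72 and 9.01 in scc2-4, a change of 0.35 (SE 0.35). TIF2 was the 1 gene of the 5 that was lower in sth1-3, by 0.50 (SE 0.46). DPS1 and GLN4, for the aspartyl and glutaminyl enzymes, had log2 changes of 0.51 (SE 0.43) and 0.40 (SE 0.38), with sth1-3 higher than scc2-4 in the 3-array set and lower in the 4-array set. Both sth1-3 arrays exceeded both scc2-4 arrays in 4 of 45, against 8.44% of all genes, and lay below them in 1, against 9.62%. By limma 0 of 45 were called, against 0% of all genes, and 0 had an unadjusted p under 0.05, against 0.202% of all genes higher and 0.184% lower.

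Wild type cells at 37C were then set against the 25C array. Here elongation factor genes had the lowest values of any subgroup, in a comparison that is also one between the array sets and has 1 array at 25C. The median log2 change was -1.87 for elongation factors (7 of 7 lower), -0.26 for initiation factors (12 of 16 lower), -0.35 for synthetases (12 of 19 lower) and -0.17 for all genes, of which 60.1% were lower. TEF2 was at least 5.30-fold, HYP2 at least 2.98-fold and YEF3 at least 1.97-fold lower at 37C, and TIF3 was 2.94-fold lower. CDC33 and TYS1 were higher at 37C, by at least 1.48-fold and 1.25-fold. The smallest p belonged to PAB1 (log2 change -1.38, SE 0.46), YEF3 (-3.24, SE 1.10), SUP45 (-1.30, SE 0.45), TEF4 (-1.87, SE 0.67) and TIF5 (-1.54, SE 0.55), each with an adjusted p of 0.449 (limma). Of these, PAB1, SUP45, TEF4 and TIF5 were below background on every array, so no fold is given for them.

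By limma 0 of 45 were called between the temperatures, against 0% of all genes. At an unadjusted p under 0.05, 10 of 45 were lower at 37C, against 6.94% of all genes, and 0 higher, against 3.25%. Both 37C arrays were below the 25C array in 30 of 45, against 50.1% of all genes, and above it in 7, against 31.1%. With the array set as a term, which takes the set difference from the mutants, the elongation factor median was -0.31 and the synthetase median 0.029, and 0 of 45 were called, against 0.0734% of all genes. Within the 3-array set the mutants at 37C could be set beside wild type at 25C, with strain and temperature both differing. The elongation factor median there was 0.09 on sth1-3 replicate 1 and 0.02 on scc2-4 replicate 1 relative to the wild type 25C array, and TEF2 differed by 0.38 and 0.13. Single genes on sth1-3 replicate 1 differed in both directions, with EFT2 at 1.03, CAM1 at -0.66 and YEF3 at -0.56.

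**Figure D5:**
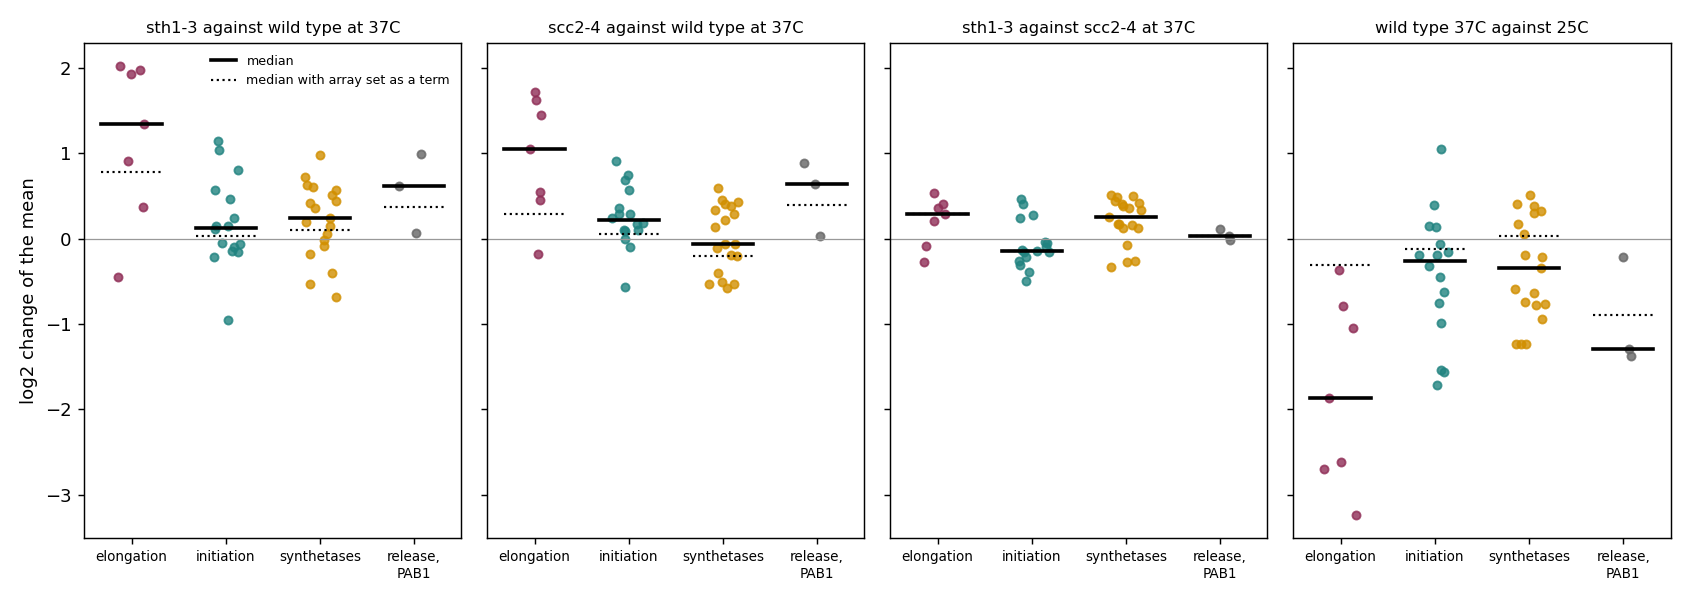
Log2 change of each measured gene (points) in the 4 comparisons (panels), by subgroup (x axis); solid bars are subgroup medians and dotted bars the medians with the array set as a term. Elongation factors stand at medians of 1.34, 1.05, 0.29 and -1.87 from left to right, which become 0.78, 0.29, 0.29 and -0.31 with the term.

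Other genes of translation were taken from lists drawn up by function. Of 18 further cytosolic factors, RPG1, which encodes an eIF3 subunit, was above background on all 7 arrays, at 10.71 and 10.57 in sth1-3, 10.85 and 11.28 in scc2-4, 11.47 and 11.49 in wild type at 37C and 11.05 at 25C. Both sth1-3 arrays and both scc2-4 arrays were thus below wild type at 37C, without a call. The 18 had a median log2 change of 0.16 in sth1-3 and 0.01 in scc2-4 against wild type, and -0.51 in wild type at 37C against 25C. GCN4, the activator of amino acid synthesis genes whose own messenger is controlled at translation, lay at 10.71 and 9.97 in sth1-3, 10.46 and 9.89 in scc2-4, 9.72 and 10.11 in wild type at 37C and 10.23 at 25C. Of these lists, 0 of 18 further factors and 0 of 4 genes of the Gcn4 pathway were called by limma in any of the 4 comparisons, against 0% of all genes.

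The mitochondrial counterparts gave values of both signs. The 13 mitochondrial synthetase genes had a median difference of -0.09 between the 3-array and the 4-array set, and 1 of 13 was higher throughout the 3-array set, against 21.6% of all genes. MSR1, for the mitochondrial arginyl enzyme, was above background on 6 of 7 arrays and ranged from 9.68 on sth1-3 replicate 1 to 10.67 on wild type 37C replicate 2. The 7 mitochondrial factors had a median difference of 0.58, and 4 of 7 were higher throughout the 3-array set, against the same 21.6% of all genes. In each list 1 gene (MSK1 and RRF1) was lower throughout the 3-array set, against 14% of all genes. Background was passed on at least 1 array by 3 of 13 synthetases and 2 of 7 factors, against 22.6% of all genes. In sth1-3 against wild type at 37C the mitochondrial synthetases had a median log2 change of -0.08 and in scc2-4 of -0.07, whereas the mitochondrial factors had 0.48 and 0.19. By limma 0 of 13 and 0 of 7 were called in any comparison, against 0% of all genes.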

How the data were processed

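Labelled RNA-derived DNA from 7 samples was hybridised to one-colour Affymetrix arrays with probe sets for both yeasts. The authors deposited a log2 intensity for every probe set on every array. RMA and affy are named per the submitters' processing notes; their versions, and whether all arrays were normalized together, are not given in the sources used here. The platform annotation gave 1 symbol to 7244 of 10928 probe sets, several to 1, and left 3683 unnamed here; 5498 were found by identifier among the S. cerevisiae genes and the other 1746 were taken as S. pombe. Groups follow the titles. For the 25C sample the title alone is used, because its growth protocol mentions the shift to 37C.

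All 7 arrays were fitted with a mean per group with limma 3.58.1 under R 4.3.3 (lmFit, eBayes) (3 residual degrees of freedom), two-sided, with Benjamini-Hochberg adjustment over 5449 genes and a threshold of 0.05. The fit was tested on simulated data, for scc2-4 against wild type only. Those data had independent noise and no array set difference, so they do not show how the fit behaves under the split seen here. Folds against a group below background use the higher of background and signal on each array, and none is given where both groups are below it. The labels do not call the replicates separate cultures; the p-values reflect array-to-array spread alone, which may be technical, and the number of arrays limits the precision. No depth applies to arrays. The array sets were split at the widest gap in the mean of 18 bacterial hybridisation controls. The members, lists, tests and sets were chosen with earlier results of these data known. Genes whose test is given for the main fit are the 5 with the smallest p per comparison, and CDC33 is given with its SE in sth1-3. For the fit of sth1-3 with the array set as a term, genes with an unadjusted p under 0.05 in that fit were added, YEF3 and GUS1 among them. Other values are named as descriptions. Alternatives were a replicate block, the array set as a term or only the 4-array set, other eBayes options, a background filter, 2 normalizations, other probe set rules, fewer groups, and leaving out each replicate.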

Additional observations from a re-analysis of the deposited data

How the results depend on the processing

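Across the 4 comparisons, 0 of the 45 genes were called under every alternative, with 1 exception: a fit of the 3 wild type arrays alone called 12 genes lower at 37C, PAB1, YEF3, SUP45, TEF4 and TIF5 among them, with 1 residual degree of freedom and a spread shared by all genes. Over all 5449 genes, where 0 were called, that fit called 911. The array set term called 10 in sth1-3, 7 in scc2-4, 0 between the mutants and 4 in wild type. The replicate block called 1, 1 and 0 in the first 3 comparisons. A fit of only the 4-array set holds 1 array per mutant, with 1 residual degree of freedom and a spread shared by all genes. Its calls over all genes are therefore not counted. Leaving out 1 replicate likewise leaves 1 array in its group, and those calls are not counted either. In both mutants replicate 1 is of the 3-array set and replicate 2 of the 4-array set, while both wild type 37C arrays are of the 4-array set. The replicate block thus coincides with the array set in the mutants but not in wild type. Correlations of replicate differences were -0.20 (wild type with scc2-4), -0.36 (wild type with sth1-3) and 0.55 (scc2-4 with sth1-3). With the replicate block, the medians of sth1-3 (1.34) and scc2-4 (1.05) elongation factors stayed as they were and 0 of 45 were called.

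The array set as a term gave elongation medians of 0.29 in scc2-4 and -0.31 in wild type 37C against 25C, where all 45 genes were at -0.083, initiation factors at -0.12 and synthetases at 0.029. With only the 4-array set, scc2-4 elongation factors were at 0.15, and in sth1-3 against scc2-4 initiation factors were at 0.13, DPS1 at -0.28 and GLN4 at -0.16. Among genes above background on at least 2 arrays, chosen partly by being high in 1 group, the sth1-3 medians were 0.64 for 10 genes and -0.10 for 3 initiation factors, and in wild type -0.92 and -0.32. Only 1 synthetase passed, so no median is given. Centring moved the wild type medians to -0.40 (all 45) and -0.069 (initiation), and that of all genes from -0.17 to 0.02; quantile normalization gave -0.42, -0.11 and, for synthetases, -0.14. Without shared probe sets the values were -0.52 and -0.32.

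Leaving out 1 array gave scc2-4 medians of 0.15 (without scc2-4 replicate 1) to 1.47 for elongation factors and -0.37 (without wild type replicate 1) to 0.28 for synthetases. In wild type the ranges were -0.57 to -0.49 (all 45), -2.41 to -1.32 (elongation) and -0.44 to -0.19 (initiation). Without scc2-4 replicate 1, DPS1 was at -0.030 in sth1-3 against scc2-4, and without scc2-4 replicate 2 it was at 1.05. These were the ends of its range over the fits that leave out 1 array. With only the 4-array set DPS1 was lower still, at -0.28. The 25C array carries no shared number and lies in the other set, so wild type had neither a block nor a fit within 1 set. The cause of these moves was not tested. Low signal over background limits most genes.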
